A study of Mus musculus with 26 samples.

Results

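Interferon-inducible GTPases of the guanylate-binding protein (GBP) and immunity-related GTPase (IRG) families were followed in mouse cortex after stroke. The 10 genes were taken by symbol: Gbp2, Gbp3, Gbp4, Gbp5, Gbp6, Gbp7, Irgm1, Irgm2, Igtp and Iigp1. Of these, 8 matched an identifier among the 39179 gene entries of each count table, and all 8 passed the filter on low counts that left 16325 genes for testing. The identifiers of Gbp5 and Gbp6 matched no entry, and both genes were not analysed here. All mice were C57BL/6J, a common inbred strain. In the stroke groups, cortex holding the stroke core with its rim was taken 3 days after focal ischemia. For sham cortex no such day was recorded. At 15 weeks of feeding, the groups were stroke on a high-fat diet with 60% of calories from fat (6 libraries) and stroke on a control diet with 6% (4 libraries). At 6 weeks they were stroke on the high-fat diet (6 libraries), stroke on the control diet (4 libraries), sham on the high-fat diet (3 libraries) and sham on the control diet (3 libraries). The labels give no sex, age or batch, and they do not say that each library came from a separate animal, so a p-value here reflects how far these libraries scatter, which may be technical. An effect of 15 against 6 weeks cannot be told apart from the age of the mice or separate handling, and 15-week sham cortex was not analysed here.

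GBPs and IRGs are GTPases whose genes are switched on by interferons, most strongly by interferon gamma, through the interferon receptors and the transcription factors that these activate. In infected mouse cells the effector proteins, among them Gbp2 and Iigp1, gather on the vacuoles of parasites and bacteria, while the regulatory proteins Irgm1, Irgm2 and Igtp hold effector IRGs inactive on the membranes of the cell itself. In brain, microglia, astrocytes and endothelial cells can make them after exposure to interferon.

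Interferon signalling reaches these genes through the interferon-stimulated response element (ISRE) and the gamma-activated site (GAS), so stretches around the RefSeq gene starts are shown for the members whose levels are described next. Each window ran from 250 bases before to 50 bases after the start in build GRCm38.p6, whereas the submitters' notes name the older build mm9 for the counts. Of the measured members, 6 had a window and Gbp3 had a second one. Both strands were searched for an ISRE core written GAAANNGAAA (TTTCNNTTTC on the other strand) and for a GAS written TTCNNNGAA, which reads the same on both. In the lines that follow, capitals mark these matches, and each stretch reads 5′ to 3′ along the gene's strand. They lie at chr3:142620584-142620633 (plus strand, Gbp2), chr3:142559979-142560034 (plus, Gbp3), chr3:142530210-142530312 (plus, Gbp7), chr11:48871415-48871470 (minus, Irgm1), chr11:58214882-58214942 (plus, Irgm2) and chr11:58199491-58199551 (plus, Igtp).
Gbp2: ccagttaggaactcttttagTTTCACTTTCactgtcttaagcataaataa
Gbp3: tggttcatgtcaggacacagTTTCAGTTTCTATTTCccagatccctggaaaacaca
Gbp7: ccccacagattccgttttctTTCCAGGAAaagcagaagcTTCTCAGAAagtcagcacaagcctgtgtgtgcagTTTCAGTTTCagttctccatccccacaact
Irgm1: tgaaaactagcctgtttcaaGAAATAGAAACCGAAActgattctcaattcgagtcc
Irgm2: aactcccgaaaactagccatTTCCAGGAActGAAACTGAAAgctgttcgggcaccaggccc
Igtp: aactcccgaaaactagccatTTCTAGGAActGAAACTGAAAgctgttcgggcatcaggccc

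An ISRE core lay in a window of 6 of these 6 genes, and in 3.44% of all 32851 windows of the same length. A GAS lay in the windows of 3 of the 6 (Gbp7, Irgm2 and Igtp) and in 8.3% of all windows, and 0.454% of all windows held both. Counting -1 as the base before the RefSeq start, the ISRE core nearest to it ended at -15 (Irgm1) and the farthest at -55 (Irgm2), with those of Igtp, Gbp3, Gbp7 and Gbp2 between them. In the GENCODE M21 annotation Irgm1 begins at 48871683 and Irgm2 at 58199618, outside their windows. Gbp2 begins there at 142620602, ahead of its core. The distances therefore hold for the RefSeq starts only. In Gbp3 and in Irgm1 a pair of ISRE cores overlapped, and the second window of Gbp3 held neither motif. The stretches of Irgm2 and Igtp differed at 2 of 61 bases. A match describes letters in the window and does not show that a factor bound there.

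Each library held between 11400882 and 16962682 counts in genes, and levels are given as CPM, the counts of a gene relative to the library total with sizes scaled by the trimmed mean of M-values (TMM). Excitatory neuron markers of cortex summed to between 1397 and 2653 CPM over the 26 libraries, with no marker of that list at 0 in any group, so the tissue label matched its markers. Microglia markers summed to 465 CPM in high-fat stroke replicate 1 and 500 CPM in control-diet stroke replicate 3 at 15 weeks, above the highest sham library (386 CPM) and below the lowest of the other stroke libraries (683 CPM). Choroid plexus markers summed to 965 CPM in high-fat stroke replicate 6 and 280 CPM in high-fat sham replicate 2 at 6 weeks, against medians of 14.5 and 37.3 CPM in their groups. In the annotation (GENCODE M21) Igtp and Irgm2 share 162 exonic bases on one strand, which is 8.01% of the exonic bases of Igtp and 4.39% of those of Irgm2. Gbp4 shares 61 and 60 exonic bases with its neighbours Gbp8 and Gbp9. Gbp7 shares 637 with the pseudogene Gm43802, which has no entry in the count tables. Members of both families are also close copies of each other, so reads may be split between them and the count of any single member is uncertain.

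Stroke cortex held more RNA of the GBP and IRG genes than sham cortex on both diets. On the high-fat diet 8 of 8 measured members were higher after stroke at an adjusted p under 0.05 over all genes, where 14.2% of all genes tested were called higher and 8.85% lower. On the control diet 6 of 8 were higher, against a background of 5.1% higher and 2.57% lower, and Gbp4 and Igtp did not pass. These backgrounds moved with single libraries. Under high-fat feeding 2324 genes were higher and 1445 lower with all libraries, but 1398 and 593 without sham replicate 2 and 1339 and 494 without both choroid-rich libraries. Under control feeding 833 were higher and 420 lower with all libraries, 236 and 109 without stroke replicate 2, and 458 and 165 without stroke replicate 3. Leaving out sham replicate 1, 2 or 3 on that diet gave 219, 189 or 220 higher and 84, 135 or 245 lower. The members' median log2 fold change was 1.91 under high-fat and 1.27 under control feeding, while the median over all genes was -0.02 under high-fat and 0.00 under control feeding. Overlap between groups is given below for the members only. The share of all genes without overlap was not counted, so these separations are a description. In whole tissue, fewer cells of a type and less RNA per cell cannot be told apart.

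**Figure D1:**
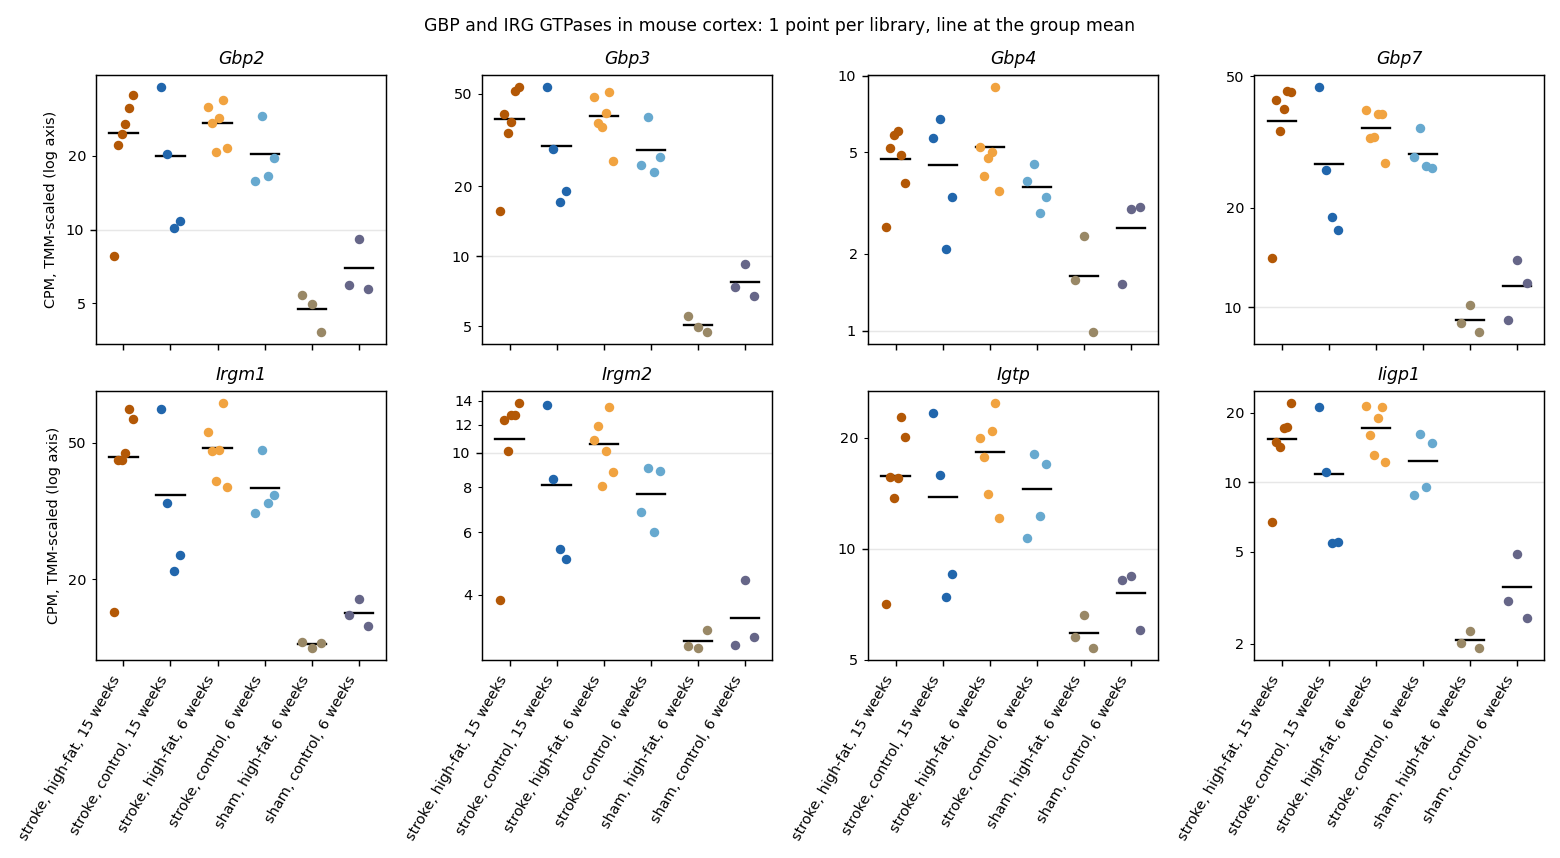
TMM-scaled CPM (vertical log axis) of the 8 measured GBP and IRG genes in each of 26 libraries, by group along the horizontal axis, with 1 point per library and a line at the group mean. At 6 weeks each stroke library lies above each sham library of its diet for all members except Gbp4 on the control diet. The share of all genes without overlap was not counted.

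Among the GBPs, Gbp3, a gene of the chromosome 3 cluster, reached the highest level per length after stroke (14.9 CPM per kb of transcript on the high-fat diet). Its lowest, median and highest values were 25.8, 39.5 and 51.0 CPM in high-fat stroke, against 5.55, 4.96 and 4.74 CPM in the 3 high-fat sham libraries. The groups were far apart, and the log2 fold change was 2.98 ± 0.41 (SE, adjusted p = 0.000196). With control feeding Gbp3 had 24.8, 39.9, 23.1 and 26.8 CPM in stroke, against 7.40, 9.23 and 6.73 CPM in sham. Stroke replicate 2 was high among its group, no stroke library reached down to a sham library, and the log2 fold change was 1.88 ± 0.40 (SE, adjusted p = 0.00833).

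Gbp2, which encodes a prenylated protein that moves to pathogen vacuoles, ranged from 20.8 to 33.8 CPM with a median of 27.95 in high-fat stroke, against 5.40, 4.96 and 3.82 CPM in high-fat sham. The log2 fold change was 2.53 ± 0.45 (SE, adjusted p = 0.000653), with no overlap between groups. In control-diet stroke its values were 15.8, 29.2, 16.6 and 19.6 CPM, against 5.95, 9.16 and 5.70 CPM in control-diet sham. Replicate 2 was again the highest of both groups on this diet, and the log2 fold change was 1.56 ± 0.44 (SE, adjusted p = 0.0356).

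Gbp7, linked in mouse macrophages to assembly of the phagocyte NADPH oxidase, lay between 27.4 and 39.5 CPM in high-fat stroke (median 35.6), against 8.93, 10.1 and 8.42 CPM in high-fat sham. It stood at 28.4, 34.8, 26.7 and 26.5 CPM in control-diet stroke, against 9.13, 13.8 and 11.8 CPM in control-diet sham. Its log2 fold changes were 1.93 ± 0.32 on the high-fat diet (SE, adjusted p = 0.000438) and 1.33 ± 0.33 on the control diet (SE, adjusted p = 0.0175), and the groups did not overlap on either diet.

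Gbp4, from the chromosome 5 cluster, was the member with the fewest counts. Between 48 and 141 counts per library gave 3.51, 4.88 and 9.04 CPM as lowest, median and highest in high-fat stroke, against 1.58, 2.34 and 0.991 CPM in high-fat sham. These groups did not overlap, and the log2 fold change was 1.68 ± 0.38 (SE, adjusted p = 0.00279). With control feeding Gbp4 had 3.87, 4.52, 2.91 and 3.36 CPM in stroke, against 1.52, 3.01 and 3.04 CPM in sham. Here stroke replicate 3 lay below a pair of the sham libraries, and the difference of 0.54 ± 0.38 on the log2 scale did not pass (SE, adjusted p = 0.417).

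The regulatory IRGs moved in the same direction. Irgm1, which is needed in mice for resistance to many intracellular pathogens and is tied to autophagy, had 37.2, 47.4 and 65.1 CPM as lowest, median and highest in high-fat stroke, against 13.2, 12.6 and 13.1 CPM in high-fat sham. In control-diet stroke it had 31.3, 47.4, 33.4 and 35.1 CPM, against 15.8, 17.5 and 14.6 CPM in control-diet sham. Sham libraries differed little from each other on each diet, and none reached a stroke library of its diet. The log2 fold changes were 1.90 ± 0.35 on the high-fat diet (SE, adjusted p = 0.000911) and 1.21 ± 0.36 on the control diet (SE, adjusted p = 0.0435).

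Irgm2, whose product restrains caspase-11 in mouse macrophages, had 8.07, 10.5 and 13.5 CPM as lowest, median and highest in high-fat stroke, against 2.88, 2.84 and 3.18 CPM in high-fat sham. Control-diet stroke had 6.82, 9.04, 5.99 and 8.89 CPM, against 2.90, 4.41 and 3.04 CPM in control-diet sham. The groups did not overlap on either diet. The log2 fold change was 1.83 ± 0.34 on the high-fat diet (SE, adjusted p = 0.000727) and 1.16 ± 0.35 on the control diet (SE, adjusted p = 0.0420).

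Igtp, also called Irgm3, had 12.2, 18.9 and 24.8 CPM as lowest, median and highest in high-fat stroke, against 5.76, 6.59 and 5.38 CPM in high-fat sham. In control-diet stroke its values were 10.7, 18.1, 12.2 and 17.0 CPM, against 8.23, 8.46 and 6.02 CPM in control-diet sham. All stroke libraries lay above all sham libraries of their diet. The log2 fold change was 1.63 ± 0.35 on the high-fat diet (SE, adjusted p = 0.00255), while 0.94 ± 0.36 on the control diet did not pass (SE, adjusted p = 0.112).

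Iigp1, also called Irga6, is the effector IRG of the set and coats the vacuole of Toxoplasma. It had 12.3, 17.5 and 21.4 CPM as lowest, median and highest in high-fat stroke, against 2.02, 2.27 and 1.91 CPM in high-fat sham. Control-diet stroke had 8.79, 16.2, 9.51 and 14.8 CPM, against 3.04, 4.90 and 2.59 CPM in control-diet sham. Both pairs of groups were separate. The log2 fold change was 3.05 ± 0.45 on the high-fat diet (SE, adjusted p = 0.000281), next to that of Gbp3 at the top of the set, and 1.82 ± 0.43 on the control diet (SE, adjusted p = 0.0149).

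**Figure D2:**
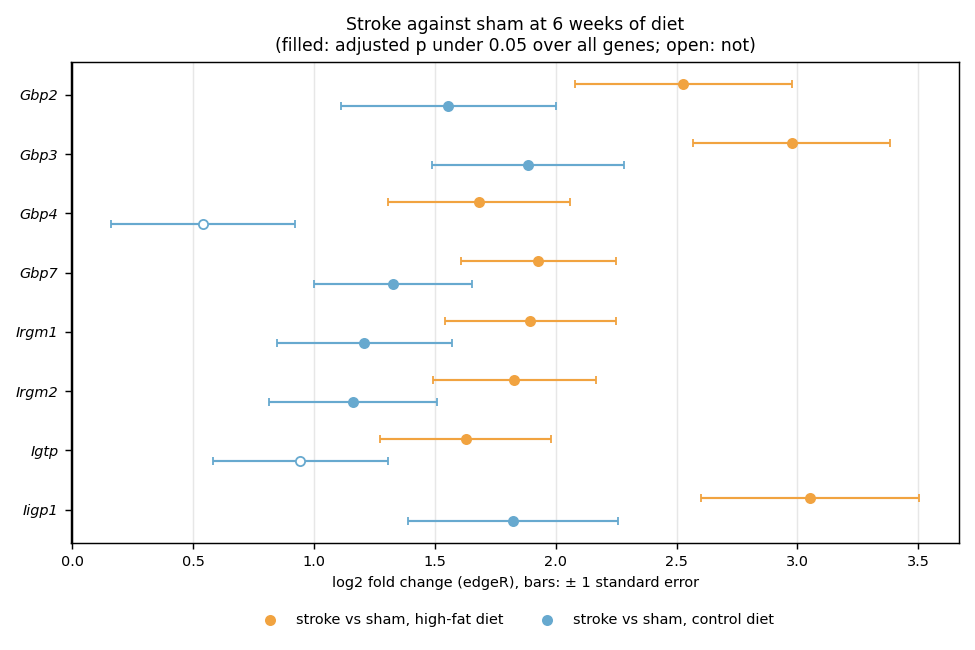
Log2 fold change of stroke over sham (horizontal axis, edgeR) of each member at 6 weeks, with bars of 1 standard error, for the high-fat diet (upper point of each pair) and the control diet (lower point). Filled points passed an adjusted p of 0.05 over all genes. All points lie above 0, and the open ones are Gbp4 and Igtp on the control diet.

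The high-fat result did not rest on a single library, because 8 of 8 members passed with any one library left out and with both choroid-rich libraries left out. The control-diet calls rested on single libraries, while the log2 fold changes stayed above 0 in each fit. Over the alternatives these ran from 1.32 to 1.79 for Gbp2, 1.65 to 2.01 for Gbp3, 0.28 to 0.69 for Gbp4 and 1.18 to 1.46 for Gbp7. They ran from 1.05 to 1.28 for Irgm1, 1.04 to 1.36 for Irgm2, 0.71 to 1.07 for Igtp and 1.63 to 2.12 for Iigp1. Without stroke replicate 2, without sham replicate 1 or without sham replicate 3, 1 member passed, Gbp3. Without sham replicate 2 the count was 2 (Gbp3 and Iigp1), and without stroke replicate 3 it was 3 (Gbp3, Gbp7 and Iigp1). It was also 2 by limma voom and 2 once the model held a covariate for the fragments that fell outside genes. Their share had a median of 21.7% of all counts in high-fat stroke and 26.9% in high-fat sham, and of 22.0% in control-diet stroke and 23.9% in control-diet sham.

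Per length of the longest transcript, the order of the members differed between stroke and sham libraries. In high-fat stroke at 6 weeks Gbp3 came first with 14.9 ± 3.41 CPM per kb (SD, n = 6), then Irgm1 (12.6 ± 2.68), Gbp2 (10.9 ± 2.10) and Igtp (9.03 ± 2.30). Gbp7 (6.21 ± 0.85) and Iigp1 (5.50 ± 1.26) followed, then Irgm2 (2.99 ± 0.562) and Gbp4 (1.16 ± 0.431). Each of the first 4 lay within the SD of its neighbour, as did Gbp7 and Iigp1. In high-fat sham Irgm1 came first with 3.38 ± 0.0784 CPM per kb (SD, n = 3), then Igtp (2.92 ± 0.308), Gbp3 (1.90 ± 0.155), Gbp2 (1.88 ± 0.325), Gbp7 (1.63 ± 0.157), Irgm2 (0.841 ± 0.0535), Iigp1 (0.662 ± 0.0591) and Gbp4 (0.361 ± 0.149). There Gbp3 and Gbp2, and Gbp2 and Gbp7, lay within the SD of Gbp2, and other neighbours in the order were farther apart than their SD. Levels per length depend on which transcripts are present and on the shared exonic bases named before.

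The difference in the stroke effect between the diets was tested directly as surgery by diet. No member passed, and 0% of all genes were called (914 genes had an unadjusted p under 0.05, DESeq2 called 1 gene, no member, and limma voom 0). All 8 estimates were above 0, between 0.60 ± 0.45 for Gbp7 and 1.23 ± 0.62 for Iigp1 on the log2 scale (SE), with a median of 0.83. Gbp4 had 1.14 ± 0.53 and an unadjusted p = 0.0419, and every member had an adjusted p = 0.832. These estimates share their libraries with both stroke comparisons and carry no separate evidence. All 8 stayed above 0 in each alternative fit, with adjusted p between 0.482 and 1.

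**Figure D3:**
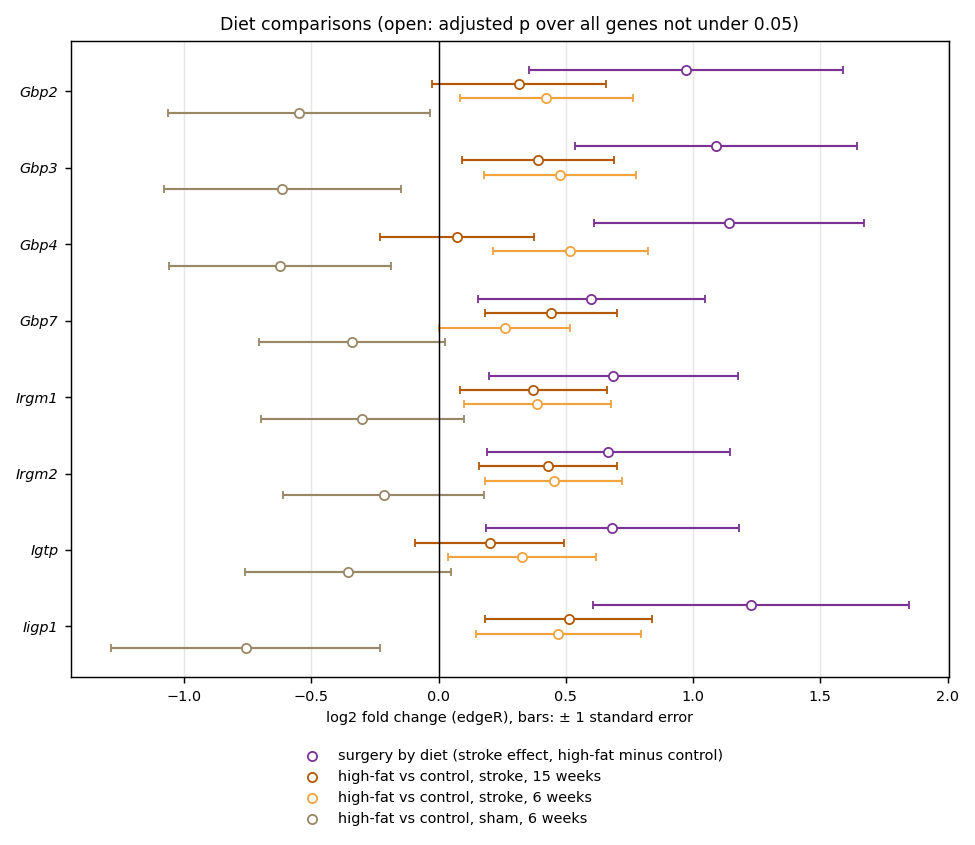
Log2 differences (horizontal axis, edgeR, bars of 1 standard error) of each member between diets, with the difference of the stroke effects between diets on top, then high-fat against control feeding in stroke at 15 and at 6 weeks and in sham. All points are open because no member passed an adjusted p of 0.05. Points of stroke at both feeding times lie above 0 and points of sham lie below 0.

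High-fat feeding was set against control feeding within each operation. In 6-week stroke 0 of 8 members passed, with 0% of all genes called by edgeR (1141 at an unadjusted p under 0.05, 0 by DESeq2 and 0 by limma voom). Group means were 40.0 ± 9.15 CPM of Gbp3 with high-fat feeding (SD, n = 6) and 28.7 ± 7.67 CPM with control feeding (SD, n = 4). For Irgm1 they were 48.2 ± 10.3 CPM under high-fat and 36.8 ± 7.26 CPM under control feeding, and for Iigp1 17.2 ± 3.94 CPM under high-fat and 12.3 ± 3.74 CPM under control feeding. The libraries of both diets overlapped for all 8 members. Log2 differences ran from 0.26 ± 0.26 for Gbp7 to 0.52 ± 0.30 for Gbp4 (SE), with adjusted p between 0.667 and 0.749.

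In 15-week stroke the spread was wider. Gbp3 had 15.7, 39.4 and 53.5 CPM as lowest, median and highest on the high-fat diet, against 53.7, 28.9, 17.2 and 19.1 CPM on the control diet. Iigp1 had 6.74, 16.1 and 22.0 CPM on the high-fat diet, against 21.3, 11.1, 5.47 and 5.51 CPM on the control diet. The lowest libraries of each diet thus lay between the sham and the 6-week stroke levels of these genes, and the highest ones above the 6-week stroke maximum of their diet. No member passed, 0% of all genes were called (1299 at an unadjusted p under 0.05, 8 by DESeq2 and 0 by limma voom), and the log2 differences ran from 0.07 ± 0.30 for Gbp4 to 0.51 ± 0.33 for Iigp1 (SE, adjusted p between 0.684 and 0.953). Without high-fat replicate 1 and control-diet replicate 3, 0 members passed either.

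In sham cortex the estimates pointed the other way. All 8 were below 0, between -0.76 ± 0.53 for Iigp1 and -0.22 ± 0.39 for Irgm2 on the log2 scale (SE, adjusted p between 0.965 and 0.990), and 0% of all genes were called by edgeR (782 at an unadjusted p under 0.05, 1 by DESeq2 and 0 by limma voom). Each high-fat sham library lay below each control-diet sham library for Gbp2, Gbp3, Irgm1 and Iigp1. The share of all genes ordered in this way was not counted, and the members ran together between libraries. For none of these genes did the difference pass the test.

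Time on the diet was examined in stroke cortex. On the high-fat diet 0.735% of all genes were called higher at 15 weeks and 1.62% lower, and on the control diet 0.239% higher and 0.325% lower. No member was among them on either diet. These shares rested on single libraries and on the fit. With high-fat feeding, 120 genes were higher and 264 lower with all libraries, 464 and 844 without 15-week replicate 1, 879 and 836 without both intermediate libraries, and 0 and 0 with the covariate for fragments outside genes. The total was between 135 and 241 without 6-week replicate 1, 2, 4 or 5 or 15-week replicate 2, 3, 4 or 6. With control feeding, 39 genes were higher and 53 lower with all libraries, 297 and 217 without both intermediate libraries, and 0 and 0 by limma voom or with the covariate. There the total was 0 without 6-week replicate 2, 3 or 4 or 15-week replicate 1, 59 without 6-week replicate 1, 19 without 15-week replicate 3 and 3 without 15-week replicate 4. No member was called in any of these fits. The members' log2 differences of 15 against 6 weeks had a median of -0.11 under high-fat and -0.05 under control feeding. They ran from -0.20 to 0.08 under high-fat and from -0.19 to 0.29 under control feeding, each smaller than its standard error. The test of diet by weeks called 0% of all genes (792 at an unadjusted p under 0.05, 0 by DESeq2 and 0 by limma voom), and the members' median was -0.05 log2 units. Signs of these small estimates changed between processing alternatives.

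Libraries differed in the whole set of members at once. High-fat stroke replicate 1 at 15 weeks was the lowest of its 6 libraries for 8 of 8 members, and control-diet stroke replicate 2 at 6 weeks was the highest of its 4 for 8 of 8. Control-diet stroke replicate 1 at 15 weeks was the highest for 7 of 8 and replicate 3 the lowest for 6 of 8. Summed over the 8 members, the 15-week high-fat libraries held 73.8, 198, 181, 203, 248 and 252 CPM for replicates 1 to 6, and the 15-week control-diet libraries 265, 151, 87.6 and 93.1 CPM for replicates 1 to 4. Microglia markers in the same order summed to 465, 1007, 1130, 1182, 1359 and 1121 CPM on the high-fat diet, and to 1101, 1014, 500 and 994 CPM on the control diet. High-fat replicate 1 and control-diet replicate 3 were thus low in both sums, whereas control-diet replicate 4 was low in the members only. The part of these cells in the members' levels was not tested.

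**Figure D4:**
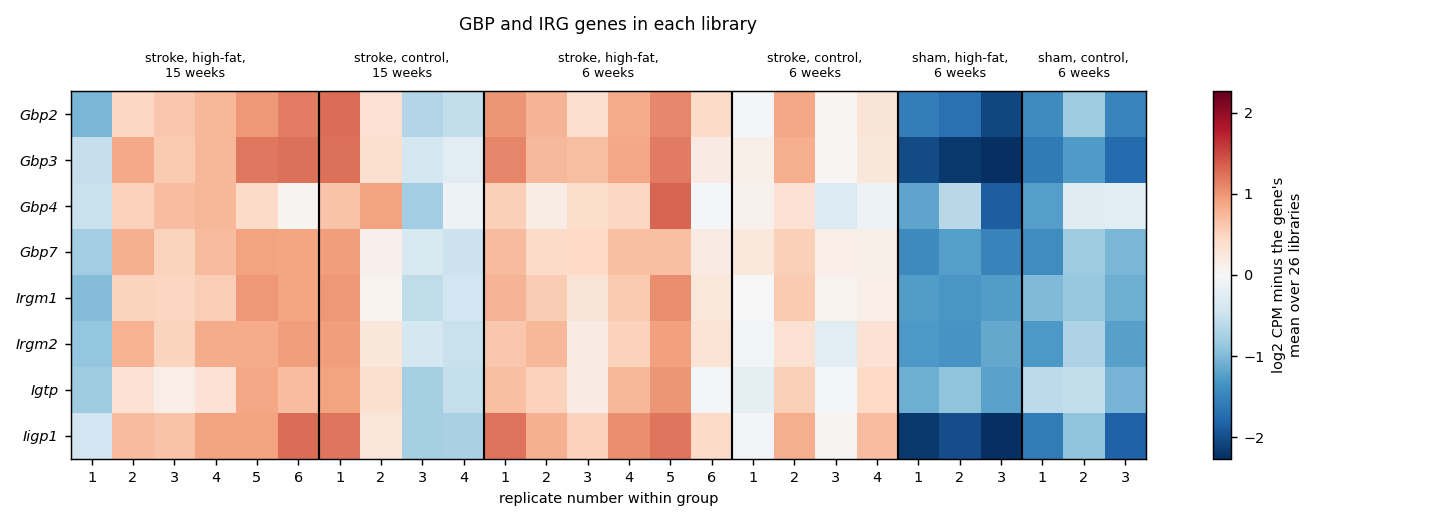
Each cell gives log2 CPM of a member (rows) in a library (columns, by group) minus that gene's mean over the 26 libraries, red above and blue below it. Columns tend to have a single colour, such as high-fat stroke replicate 1 at 15 weeks, and Gbp4 departs most from the other rows.

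Over the 26 libraries, deviations from group means ran together between members. Pearson r had a median of 0.93 over the 16 pairs of a GBP with an IRG, 0.93 over the 6 IRG pairs and 0.80 over the 6 GBP pairs. Gbp4 departed from the rest, with r = 0.66 to the mean of the other members, where those of the other 7 members lay between 0.94 and 0.98. Its closest gene outside the members was Ifi47 (r = 0.84), itself an interferon-induced GTPase gene. Library, depth and tissue sampled are shared by all genes of a library, so these values are a description. Among the genes outside the members whose log2 CPM ran closest to the members' mean were Ifit1 (r = 0.991), Eif2ak2 (0.986), Ddx58 (0.985), Rtp4 (0.985), Trim30a (0.984), Irf9 (0.982) and Slfn8 (0.979). By deviations from group means they included Ddx58 (0.978), Ifit1 (0.971), Eif2ak2 (0.970), Rtp4 (0.959), Trim30a (0.951), Stat2 (0.947) and Ifit2 (0.947).

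Other genes listed with these families, here called family genes, behaved alike, with an exception. The list also held genes of the very large interferon-inducible GTPase family, among them Gvin1 and Gm4070. Of 28 names listed, 18 were in the tables and 15 passed the filter. On the high-fat diet 13 of 15 were higher after stroke and 0 lower, with a median log2 fold change of 1.90, and on the control diet 9 of 15 were higher and 0 lower, with a median of 1.61. With a minimum count of 50, 7 genes of this list were higher on the high-fat diet. That filter left genes of low count untested, such as F830016B08Rik, Gvin1 and Gm4070, with at most 30, 44 and 47 counts in any library. The control-diet calls of this and the following pathway lists rested on the same libraries as those of the members. Without stroke replicate 2 or any one sham library, at most 2 of these family genes, 1 interferon-gamma-inducible gene, 1 inflammasome gene, 0 kinase or transcription factor genes and 0 negative regulators were higher. Without stroke replicate 3, 4 interferon-gamma-inducible genes, 4 inflammasome genes and 3 kinase or transcription factor genes were higher, and 5 inflammasome genes were without stroke replicate 1. Gm5431, a predicted gene of this list, had 3.42 ± 1.24 CPM in high-fat stroke (SD, n = 6) and 0.166 ± 0.0404 CPM in high-fat sham (SD, n = 3), a log2 fold change of 4.29 ± 0.65 (SE, adjusted p = 0.000272). Gm12250, Gm4951, F830016B08Rik, Gbp2b and Gbp9 had log2 fold changes of 3.14, 3.14, 2.63, 2.10 and 1.76 on this diet. Tgtp1, Tgtp2, 9930111J21Rik1, 9930111J21Rik2, Gvin1 and Gm4070 were also called, at log2 fold changes between 1.38 and 1.90. Gm4841 had no count in the high-fat sham libraries and 0.486 ± 0.254 CPM in high-fat stroke, at least 6.82-fold higher with 3 counts over the sham group as the limit that a count of 0 allows, and the median of the list was the same with this gene at its bound.

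The exception was Irgq, which encodes a quasi-GTPase of the IRG family. It had 67.8 ± 4.68 CPM in high-fat stroke (SD, n = 6) and 73.5 ± 10.5 CPM in high-fat sham (SD, n = 3), a log2 difference of -0.12 ± 0.09 that did not pass (SE, adjusted p = 0.373). With control feeding it was at -0.04 ± 0.10 (SE, adjusted p = 0.849). Gm12185 had log2 differences of 1.85 ± 0.77 on the high-fat diet (SE, adjusted p = 0.0845) and 2.16 ± 0.86 on the control diet (SE, adjusted p = 0.124), and Gbp9, Tgtp1, Gm4951 and Gvin1 passed on the high-fat diet but not on the control diet, a contrast that was not itself past the test. Gbp8, Gbp11 and Irgc1 were under the filter, with at most 0.834, 0.647 and 0.415 CPM in any library.

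The ligands that act on these genes were almost absent from the counts. Ifng, which encodes interferon gamma, had at most 1 count in a library and a count in 3 of 26 libraries. Ifnb1, which encodes interferon beta, had at most 2 counts and was seen in 5 libraries. Ifna1, Ifna5, Ifnk, Ifnl2 and Ifnl3 had 0 counts in all libraries, and Ifna2 and Ifna4 at most 1. At this depth no difference in ligand RNA was detectable. Of 5 ligand and receptor genes that passed the filter, all of them receptors, 4 were higher after stroke on the high-fat diet (median log2 fold change 0.79) and 0 on the control diet (median 0.25), with 0 lower on either. Il10rb, a receptor chain shared by interferon lambda and interleukin 10, rose by 1.14 ± 0.26 on the high-fat diet (SE, adjusted p = 0.00341). Ifngr1, the ligand-binding chain for interferon gamma, had 23.7 ± 2.94 CPM in high-fat stroke and 13.8 ± 1.33 CPM in high-fat sham (SD, n = 6 and 3), and a log2 fold change of 0.79 ± 0.19 (SE, adjusted p = 0.00409). Ifnar2 (0.81 ± 0.19) and Ifngr2 (0.24 ± 0.09) were the others called.

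Kinases and transcription factors of the pathway were higher in 9 of 13 cases on the high-fat diet (median log2 fold change 1.01) and in 6 of 13 on the control diet (median 0.63), with none lower. Irf9, the DNA-binding subunit of the factor complex that type I interferon activates, changed by 2.09 ± 0.33 and Irf8, a factor of myeloid cells, by 2.23 ± 0.37 on the high-fat diet. Irf7, which drives type I interferon production, had the largest change of those named, at 3.78 ± 0.65 (SE, adjusted p = 0.000566), with 29.1 ± 9.52 CPM in high-fat stroke and 2.11 ± 0.264 CPM in high-fat sham. On the control diet Irf9, Irf8 and Irf7 had log2 fold changes of 1.42, 1.62 and 2.35, and all 3 passed.

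Negative regulators were higher in 5 of 10 cases and lower in 1 on the high-fat diet, and higher in 3 and lower in 0 of 10 on the control diet. Their median was 0.75 in the high-fat comparison and 0.30 in the control-diet one. Usp18, which removes ISG15 and blocks the type I receptor, had 14.5 ± 5.20 CPM in high-fat stroke and 1.02 ± 0.329 CPM in high-fat sham, with a log2 fold change of 3.81 ± 0.63 (SE, adjusted p = 0.000436). Isg15 and the phosphatase gene Ptpn6 were at 4.05 ± 0.71 and 2.37 ± 0.45 on this diet. The one that fell was Pias1, an inhibitor of interferon signalling, by 0.25 ± 0.06 log2 units (SE, adjusted p = 0.00323). Usp18, Isg15 and Ptpn6 also rose on the control diet, with log2 fold changes of 2.25, 2.75 and 1.69, although between 0 and 4 genes of the list were called there over the alternatives.

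Of 24 tested genes known to respond to interferon gamma outside the GTPases, 21 were higher after stroke on the high-fat diet (median log2 fold change 2.05) and 12 on the control diet (median 1.25), with none lower. Cxcl10, a chemokine gene, had 7.79 ± 2.36 CPM in high-fat stroke and 0.0472 ± 0.0409 CPM in high-fat sham (SD, n = 6 and 3), the sham value resting on at most 1 count per library. Tap1, the peptide transporter of antigen presentation, had 14.4 ± 3.76 CPM in high-fat stroke and 1.85 ± 0.331 CPM in high-fat sham, a log2 fold change of 2.95 ± 0.52 (SE, adjusted p = 0.000566). The proteasome activator genes Psme1 and Psme2 rose by 0.89 ± 0.14 and 0.92 ± 0.16 on this diet. On the control diet Psme1, Cxcl10 and Tap1 passed, at 0.69, 3.96 and 1.97, and Psme2 at 0.48 ± 0.17 did not (SE, adjusted p = 0.0827).

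**Figure D5:**
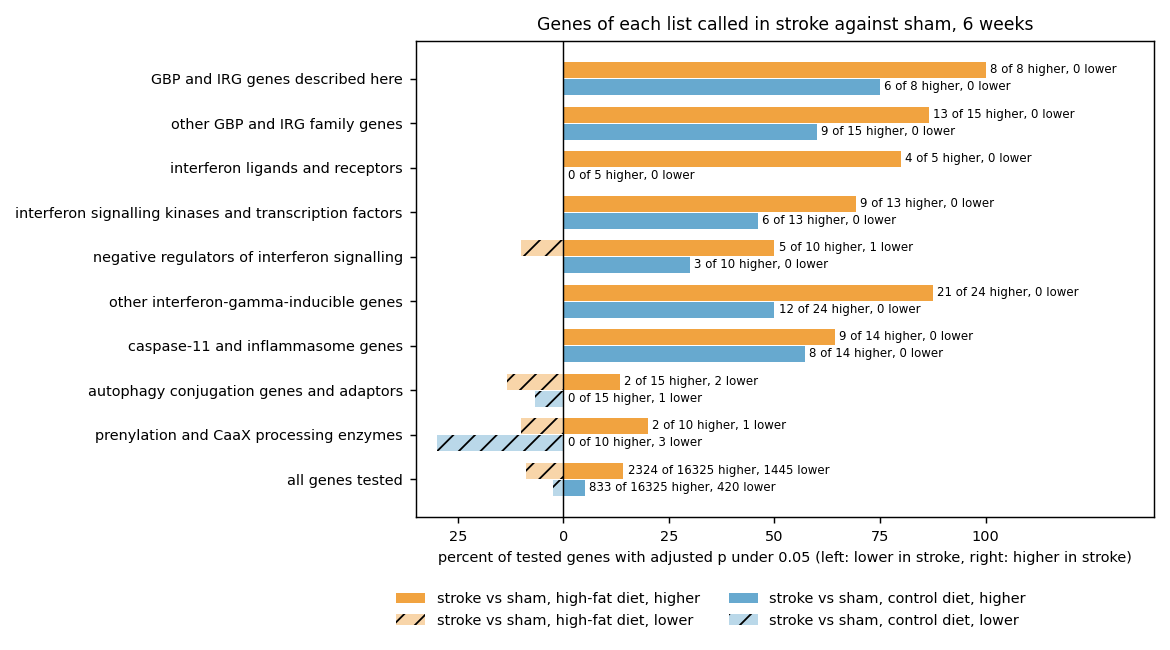
Percent of the tested genes of each list (horizontal axis) with an adjusted p under 0.05 in stroke against sham, solid bars to the right for higher and hatched bars to the left for lower in stroke, with the high-fat diet above the control diet in each pair. GBP and IRG genes and interferon-gamma-inducible genes have long bars to the right and none to the left, while autophagy (2 of 15 higher and 2 lower on the high-fat diet) and prenylation genes (2 of 10 higher and 1 lower) have short bars on both sides. All genes tested are at the bottom.

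GBPs act with caspase-11 and the inflammasomes in infected macrophages, and genes of that machinery were higher in 9 of 14 cases on the high-fat diet (median log2 fold change 1.47) and in 8 of 14 on the control diet (median 1.49), with none lower. Casp4, which encodes caspase-11 in mice, had 2.83 ± 0.865 CPM in high-fat stroke and 0.309 ± 0.249 CPM in high-fat sham (SD, n = 6 and 3), a log2 fold change of 3.16 ± 0.50 (SE, adjusted p = 0.000282). The adaptor gene Pycard was at 2.75 ± 0.42, and Naip2 and Naip5, which encode sensors of bacterial proteins, at 3.00 ± 0.48 and 2.53 ± 0.43 on the high-fat diet. All 4 passed on the control diet too, with log2 fold changes of 1.76 for Casp4, 2.33 for Pycard, 1.76 for Naip2 and 1.60 for Naip5.

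Autophagy proteins of the ATG8 conjugation system help to place GBPs and IRGs on vacuoles, and several GBPs carry a prenyl anchor. Of 15 autophagy genes, 2 were higher and 2 lower on the high-fat diet (median -0.07), and 0 were higher and 1 lower on the control diet (median -0.09). Of all genes tested, 14.2% were higher and 8.85% lower on the high-fat diet, and 5.1% higher and 2.57% lower on the control diet. Gabarap (0.43 ± 0.10) and Optn (0.20 ± 0.07) were the ones higher on the high-fat diet, while Atg16l1 fell by 0.24 ± 0.06 and the adaptor gene Sqstm1 fell by 0.33 ± 0.07 on the log2 scale. Sqstm1 also fell on the control diet, by 0.41 ± 0.07 (SE, adjusted p = 0.00345). Over the alternatives, 0 to 2 autophagy genes were higher and 2 to 3 lower on the high-fat diet. On the control diet 0 to 1 were higher and 1 to 4 lower. Map1lc3b, which did not pass in either stroke comparison, was lower at 15 than at 6 weeks on the high-fat diet, as the only call of this list in a comparison of weeks.

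Of 10 genes for prenylation and CaaX processing, 2 were higher and 1 lower on the high-fat diet (median -0.01), and 0 were higher and 3 lower on the control diet (median 0.02). The shares of all genes were 14.2% higher and 8.85% lower on the high-fat diet, and 5.1% higher and 2.57% lower on the control diet. Arhgdia and Pde6d, which encode carriers of prenylated proteins, rose by 0.33 ± 0.09 and 0.26 ± 0.08 on the high-fat diet. The methyltransferase gene Icmt fell by 0.15 ± 0.05 on the log2 scale on the high-fat diet. With control feeding Icmt, Rabggta and the protease gene Rce1 fell by 0.20, 0.28 and 0.33. These changes were small beside those of the GTPase genes. Over the alternatives, 0 to 3 genes of this list were higher and 0 to 1 lower on the high-fat diet. On the control diet 0 to 1 were higher and 0 to 3 lower.

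Markers of several cell types moved with the members. Microglia markers were higher in 12 of 12 cases on both diets, with a median log2 fold change of 1.19 under high-fat and 0.97 under control feeding. P2ry12 was at log2 fold changes of 0.73 ± 0.11 under high-fat and 0.78 ± 0.12 under control feeding. Their sum ran from 942 to 1201 CPM in high-fat stroke and from 347 to 386 CPM in high-fat sham, and from 683 to 1128 CPM in control-diet stroke and from 357 to 379 CPM in control-diet sham. Monocyte and macrophage markers were higher in 12 of 12 cases under high-fat and 5 of 12 under control feeding. Their median log2 fold change was 4.60 under high-fat feeding, with 3 genes at the bound that a count of 0 allows, and 3.55 under control feeding. Over the alternatives between 5 and 12 of these were higher on the high-fat diet, with 7 without sham replicate 2 and 7 without both choroid-rich libraries. Between 1 and 11 were higher under control feeding, with 1 without any one sham library and 2 without stroke replicate 2 or 3. The sum of that list ran from 150 to 293 CPM in high-fat stroke and from 78.0 to 90.4 CPM in high-fat sham, where Ly6c2, F10 and Ms4a4c were at 0. It ran from 120 to 232 CPM in control-diet stroke and from 76.4 to 82.3 CPM in control-diet sham. The part of these cells in the rise of the GTPase genes was not tested.

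Markers of T cells and natural killer cells, the usual sources of interferon gamma, stayed low. Of 18 listed, 2 passed the filter (Lck and Cd4) and neither was called. Their sum ran from 4.05 to 9.55 CPM in high-fat stroke and from 1.84 to 8.35 CPM in high-fat sham, and from 5.77 to 11.8 CPM in control-diet stroke and from 3.92 to 8.48 CPM in control-diet sham. Cd4 alone reached 10.1 CPM in a library, so it weighs heavily in such sums. In high-fat sham 12 of the 18 had no count, among them Cd3e, Cd3d, Cd3g, Cd8a, Ncr1, Gzmb and Prf1, and in control-diet sham 9 had none. In each 6-week stroke group, which held more libraries than sham, 0 of the 18 were without a count. Cd3e reached at most 2 counts in any library. Neutrophil markers were higher in 4 of 6 tested cases under high-fat and 0 of 6 under control feeding, and Ly6g, the defining marker, had no count in any library. The 4 calls became 2 without stroke replicate 2, without any one sham library or without both choroid-rich libraries. The sum of that list ran from 14.9 to 25.99 CPM in high-fat stroke and from 4.60 to 5.98 CPM in high-fat sham, and from 10.3 to 16.4 CPM in control-diet stroke and from 4.70 to 5.57 CPM in control-diet sham.

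Endothelial markers were higher in 6 of 12 cases under high-fat and 0 of 12 under control feeding, with sums from 320 to 459 CPM in high-fat stroke and from 259 to 308 CPM in high-fat sham. Meninges and fibroblast markers were higher in 5 of 10 cases under high-fat and 0 of 10 under control feeding, and their sums ran from 191 to 378 CPM in high-fat stroke and from 129 to 146 CPM in high-fat sham. Blood cell markers were higher in 5 of 5 tested cases under high-fat and 0 of 5 under control feeding, summing to between 163 and 308 CPM in high-fat stroke and between 78.5 and 109 CPM in high-fat sham. With both choroid-rich libraries left out, the high-fat comparison gave 2 endothelial calls and 1 meningeal call. Endothelial calls were 2 or 3 without stroke replicate 2, 3 or 5 and between 1 and 3 without any one sham library. Meningeal calls were 2 without sham replicate 2 and 3 without sham replicate 3, and blood cell calls 3 without sham replicate 2. Astrocyte markers were higher in 3 and lower in 2 of 10 cases on the high-fat diet, and higher in 2 and lower in 1 on the control diet. Excitatory neuron markers were lower in 4 of 10 cases under high-fat and 0 under control feeding. Over the alternatives these calls ran from 0 to 4 under high-fat and from 0 to 3 under control feeding. Oligodendrocyte markers were higher in 1 of 8 cases under high-fat (0 to 3 over the alternatives) and 0 under control feeding. None of the 8 tested choroid plexus markers passed on either diet. Over the alternatives 0 to 2 of them were lower under high-fat and 0 to 1 higher under control feeding.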

How the data were processed

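Total RNA of cortex was made into stranded paired-end libraries, per the labels' protocols. The deposited files hold whole-number counts per Ensembl gene, which the authors did not normalize as far as the values show. Per the submitters' processing notes, Trim Galore, STAR, featureCounts and HTSeq were used with build mm9, and their roles and versions are not given in the sources used here. GENCODE M21 named 37607 of 39179 identifiers, which are later than those usual with mm9. Another 5 entries that name no gene held 45.7% to 58.2% of counts and entered neither library sizes nor tests.

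Genes passed filterByExpr with a minimum count of 10. All 26 libraries were fitted with 1 mean per group by edgeR 4.0.16 (R 4.3.3, TMM, robust quasi-likelihood), and p-values of 9 contrasts were adjusted by Benjamini-Hochberg over 16325 genes, with 0.05 as the threshold. The SE is the log2 fold change divided by the square root of F. Correlations used log2 CPM with a prior count of 2. The biological coefficient of variation was 0.136. Counts of replicates gave a chi-square of 3.42 to 72.4 per degree of freedom, so all pairs differed beyond sampling noise. The limit for genes at 0 was 3 counts over the group, and it covers counting error only. The fit was tested on simulated counts.

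Genes, lists and alternatives were chosen with earlier results of these data known. Named were all members and family genes, up to 4 genes of each pathway list with the smallest p in high-fat stroke against sham, the genes called where a list had at most 5 calls, up to 3 called markers of a list, and the 8 genes closest to the members' mean with a mean CPM of at least 1, of which 1 gene is not reported here. Names on the family list that matched no entry were Gbp10, Ifgga1, Ifgga2, Ifgga3, Ifgga4, Ifggb1, Irgc, Gvin2, Gvin3 and Gm17757. Whether some of them are other names of family genes analysed here was not checked. Ifi47 was not on that list. Alternatives were RLE size factors, DESeq2 1.42.0, limma voom 3.58.1, no filter, a minimum count of 50, a non-robust fit, only the groups compared, mitochondrial, haemoglobin and ribosomal RNA genes removed, a covariate for fragments outside genes, the intermediate or choroid-rich libraries left out, and each library left out in turn.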

Additional observations from a re-analysis of the deposited data

Results flagged for a closer look

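Among 32 sets of a member in a group of 4 to 6 libraries, 3 held a library whose gap to its nearest neighbour was large against the range of the group. Chance gives about 1 in 20 for separate groups. The members ran together between libraries, so the sets are not independent and 3 of 32 cannot be set against that rate. Gbp4 in high-fat stroke replicate 5 at 6 weeks stood at 9.04 CPM, against 5.24 CPM in the next library. In high-fat stroke replicate 1 at 15 weeks Gbp7 stood at 14.1 CPM, with 34.2 CPM in the next library. Irgm2 in the same library stood at 3.87 CPM, with 10.1 CPM in the next one. That library was the lowest of its group for all 8 members and also had the lowest sum of microglia markers, 465 CPM.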

How the results depend on the processing

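No paired analysis was possible because the labels give no replicate numbers shared between groups. On the high-fat diet 8 of 8 members passed stroke against sham in all alternatives. On the control diet the 6 calls became 2 by limma voom, 3 without the filter, 2 with a covariate for fragments that fell outside genes, and between 1 and 4 with each library left out in turn, and rose to 7 with only the groups compared or without both intermediate libraries, where Igtp passed too. Gbp3 passed in all of them. The cause was not tested. The gene lists, refitted as alternatives added after the data were seen, ranged on the control diet from 1 to 11 higher calls for other family genes, 1 to 18 for interferon-gamma-inducible genes, 0 to 7 for kinases and transcription factors, 0 to 11 for inflammasome genes, 0 to 4 for negative regulators, 0 to 2 for ligands and receptors, 5 to 12 for microglia markers, 1 to 11 for monocyte and macrophage markers, 0 to 3 for neutrophil markers, 0 to 7 for endothelial markers and 0 to 6 for meningeal markers. The high-fat calls ranged from 7 to 14 for other family genes, 18 to 23 for interferon-gamma-inducible genes, 7 to 9 for kinases and transcription factors, 8 to 10 for inflammasome genes and 11 to 12 for microglia markers. Negative regulators ranged from 4 to 6, ligands and receptors from 3 to 5, monocyte and macrophage markers from 5 to 12, neutrophil markers from 1 to 5, and endothelial, meningeal and blood markers from 1 to 8, 1 to 7 and 1 to 5. No member was called in the other 7 comparisons under any alternative.

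Signs of log2 differences near 0 changed, for causes that were not tested. For diet in 15-week stroke, Gbp4 was at -0.024 without both intermediate libraries and ran from -0.15 to 0.35 with each library left out. For diet in sham, Irgm2 ran from -0.32 to 0.010. For 15 against 6 weeks on the control diet, the covariate gave 0.21 for Gbp2, 0.086 for Gbp7, 0.14 for Irgm1 and 0.21 for Igtp. Leaving out both intermediate libraries gave 0.19 for Gbp2, 0.048 for Gbp7, 0.12 for Irgm1, 0.14 for Igtp and 0.032 for Iigp1, and limma voom gave -0.077 for Gbp3 and -0.040 for Irgm2. With each library left out, Gbp2 ran from -0.56 to 0.21, Gbp3 from -0.39 to 0.27, Gbp7 from -0.49 to 0.069, Irgm1 from -0.50 to 0.14, Irgm2 from -0.28 to 0.26, Igtp from -0.45 to 0.16 and Iigp1 from -0.74 to 0.056. On the high-fat diet the covariate gave 0.16 for Gbp2, 0.34 for Gbp3, 0.19 for Gbp4, 0.18 for Irgm1, 0.17 for Igtp and 0.078 for Iigp1. Leaving out both intermediate libraries gave 0.053 for Gbp2, 0.13 for Gbp3, 0.10 for Irgm1 and 0.0090 for Iigp1, and limma voom gave -0.014 for Irgm2. With each library left out, Gbp2 ran from -0.27 to 0.040, Gbp3 from -0.15 to 0.12, Gbp4 from -0.25 to 0.074, Irgm1 from -0.19 to 0.089 and Irgm2 from -0.026 to 0.22. For diet by weeks, limma voom gave 0.027 for Irgm1 and 0.026 for Irgm2, the covariate 0.035 and 0.026 for the same genes. Without both intermediate libraries Irgm2 was at 0.00095 and Iigp1 at -0.023, and without both choroid-rich libraries Iigp1 was at -0.063. With each library left out, Gbp2 ran from -0.36 to 0.41, Gbp3 from -0.31 to 0.35, Irgm1 from -0.22 to 0.41, Irgm2 from -0.20 to 0.33, Igtp from -0.36 to 0.24 and Iigp1 from -0.20 to 0.58.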
